A study of Mus musculus with 12 samples.

Results

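The myosin heavy chain genes encode the motor protein of the muscle thick filament. The isoforms considered were Myh8 (perinatal), Myh3 (embryonic), Myh7 (slow and cardiac beta), Myh1 (adult fast, type IIx), Myh4 (adult fast, type IIb) and Myh2 (adult fast, type IIa). All array probes that the platform annotation assigns to these 6 gene symbols were taken, which gave 9 of the 45281 probes and covered 4 of the 6 genes. Myh8 had 3 probes, Myh7 had 3, Myh1 had 2 and Myh4 had 1. Myh2 and Myh3 had 0 probes under their symbols and were not measured here. The 4 genes are set against 19057 genes with a named probe.

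Skeletal muscle RNA was compared between transgenic mice (TG) that overexpress Nur77, the nuclear receptor encoded by Nr4a1, in skeletal muscle and wild-type mice (WT), all fasted overnight. Per the labels, the RNA of 2 mice was pooled, which gave 3 TG and 3 WT pools from 6 mice per genotype, and each pool was hybridised to 1 Illumina array on each of 2 chips. The pool is the replicate (n = 3 per genotype). The sample titles begin with Gastr, and the labels do not spell out the muscle. The sources used here do not give the promoter of the transgene, the number of transgenic lines, or the strain, age and sex of the mice.

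Each muscle fibre expresses mainly a single myosin heavy chain, or a pair of them, and the isoform sets how fast the fibre shortens. Mouse limb muscle first makes the embryonic and perinatal chains, and the adult fast and slow chains replace them after birth. The developmental chains are known to return in fibres that regenerate or have lost their nerve.

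On the genome, 5 of these genes sit in a row with Myh13, the extraocular myosin gene, on chromosome 11 of the GRCm38.p6 build, in the order Myh3 (67078273 to 67102291), Myh2 (67171027 to 67197517), Myh1 (67200102 to 67224577), Myh4 (67237812 to 67260447), Myh8 (67277124 to 67308634) and Myh13 (from 67327103). Myh7 lies on chromosome 14 (54970684 to 54994626), next to the cardiac alpha chain gene Myh6. Myh8 and its neighbours Myh4 and Myh1 are the cluster genes with a measured transcript, and the 250 bases before their annotated starts (RefSeq, plus strand) are shown because these neighbours gave unlike differences. Capitals mark the longest run found in all 3 windows, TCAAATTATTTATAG, and the longest run shared also with Myh2, TTCTAATTATATCC.
Myh8 (chr11:67276874-67277123): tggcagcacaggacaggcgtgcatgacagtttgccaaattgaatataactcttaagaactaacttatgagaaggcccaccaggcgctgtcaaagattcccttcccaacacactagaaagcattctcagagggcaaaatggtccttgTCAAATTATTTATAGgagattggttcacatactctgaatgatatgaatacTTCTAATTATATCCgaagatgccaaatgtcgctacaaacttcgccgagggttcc
Myh4 (chr11:67237562-67237811): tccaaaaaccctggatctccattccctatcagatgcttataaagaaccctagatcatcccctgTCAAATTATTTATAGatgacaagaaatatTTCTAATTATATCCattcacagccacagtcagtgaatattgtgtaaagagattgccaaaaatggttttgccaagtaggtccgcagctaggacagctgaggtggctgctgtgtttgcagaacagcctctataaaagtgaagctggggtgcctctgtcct
Myh1 (chr11:67199852-67200101): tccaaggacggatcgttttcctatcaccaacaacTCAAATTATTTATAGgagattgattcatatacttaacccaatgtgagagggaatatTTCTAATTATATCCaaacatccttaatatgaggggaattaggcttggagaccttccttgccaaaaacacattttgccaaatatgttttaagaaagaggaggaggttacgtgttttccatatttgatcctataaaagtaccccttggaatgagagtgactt

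Searched on both strands among 32851 RefSeq windows of 250 bases, the 14-base run occurred in 4 windows (0.0122%), which were those of Myh8, Myh4, Myh1 and Myh2. The 15-base run occurred in 3 (0.00913%), those of Myh8, Myh4 and Myh1. Both runs were chosen after the sequences were seen. The 15-base run began 104 bases before the annotated start in Myh8, against 187 in Myh4 and 216 in Myh1, and the 14-base run began 54, 158 and 160 bases before it in Myh8, Myh4 and Myh1. Each 15-base run overlaps a match to the MEF2 site, which 2.92% of all windows hold, and holds TATAAA on its reverse strand (12.4% of windows). Further TATAAA matches began 213 and 31 bases before the start in Myh4 and 32 bases before it in Myh1, and 0 further ones were found in the Myh8 window. The Nur77 response element AAAGGTCA (1.34% of windows) and its core AGGTCA (14.0% of windows) had 0 matches in the windows of all 6 genes. The motif CANNTG, bound by myogenic factors, had 1 match in the Myh8 and Myh3 windows, 2 in that of Myh4 and 0 in those of Myh1 and Myh2 (66.2% of windows). These matches describe letters in short windows.

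Per array, 17607 to 19118 probes were detected. The test took in the 15708 probes that every TG array or every WT array detected. Of the genes that mark adult fast fibres, 6 of 7 had a probe and all 6 were tested. Of 6 heart genes with a probe, Myh6 was detected on 12 of 12 arrays, Tnni3 on 2, Nkx2-5 on 1 and Nppa, Nppb and Myl7 on 0. Their summed signal was 199.4 to 245.4 in TG and 144.8 to 201.6 in WT. Of 4 adipocyte genes, Fabp4 and Plin1 were detected on 0 arrays, and Adipoq was tested and did not pass (signals of 368.55 to 810.35 in TG and 366.65 to 503.35 in WT). Nr4a1 gave no check of the labels, since its probe was detected on 0 of 12 arrays (signals from -16.2 to 8.2 in TG and from -11.3 to 3 in WT). Earlier comparisons of these arrays had set both TG3 arrays and the chip 2 array of WT1 apart, so results are also given without them where they change.

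Of the 9 isoform probes 7 were tested, and the other 2, of Myh7, were near background. In the fit over all tested probes with limma, 6 isoform probes passed an adjusted p of 0.05 (25.8% of all tested probes did). Of these, 5 were higher in TG (11.3% of all) and 1 was lower (14.6% of all). The 3 TG pools did not overlap the 3 WT pools for all of the 7 on the normalised log2 scale, which was so for 45.2% of all tested probes. A Myh7 and a Myh8 probe were tested only because all TG arrays detected them, so these counts do not support a difference of the family. In bulk muscle, fewer fibres of a type and less RNA per fibre cannot be told apart.

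Myh8, the perinatal chain, was far higher in TG muscle with each of its 3 probes. The deposited signal of probe ILMN_1223735 was 4246, 6117 and 22842 in the TG pools TG1, TG2 and TG3, against 76.2, 80.8 and 115.5 in WT1, WT2 and WT3. The lowest TG pool was thus far above the highest WT pool, and TG3 stood above the other TG pools. Relative to the WT mean the signal was 46.7-fold in TG1, 67.3-fold in TG2 and 251-fold in TG3. All 6 WT arrays detected this probe, so the WT level was low but measurable.

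The other Myh8 probes gave the same order of TG pools. Probe ILMN_2978038 read 979.75, 1363 and 7106 in TG1, TG2 and TG3, against 17.9, 28.75 and 19.65 in WT1, WT2 and WT3, where it was detected on 4 of 6 WT arrays. Probe ILMN_2978040 read 367.65, 564.95 and 3703 in TG1, TG2 and TG3, against 24.8, 21.9 and 28.65 in WT1, WT2 and WT3, with detection on 6 of 6 WT arrays. For both, as for the first probe, no TG pool came near a WT pool and TG3 was highest.

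On the normalised log2 scale the TG minus WT difference of Myh8 was 5.79 ± 0.50 for ILMN_1223735 (SE, n = 3 pools per genotype, adjusted p = 0.000252 by limma). It was 4.64 ± 0.57 for ILMN_2978038 (SE, adjusted p = 0.00127 by limma) and 3.45 ± 0.64 for ILMN_2978040 (SE, adjusted p = 0.00752 by limma). These 3 rank 1st, 2nd and 9th among the differences of all 15708 tested probes. Of them ILMN_2978038 was tested only because all TG arrays detected it, so its rank adds no support. With no filter on dim probes its adjusted p was 0.000476 by limma. The fits correspond to 55.5-fold, 24.9-fold and 10.9-fold, whereas the ratios of mean signal were 122, 143 and 61.5. The background correction adds an offset of 50, which shrinks folds against the dim WT signals. The fits also average log2 values, whereas the high TG3 pool weighs more in a mean of signals. Without background correction the differences were 6.67, 6.70 and 5.21, and the probes then lay closer together. Exact two-sided permutation tests of 3 against 3 pools gave p = 0.1 for each probe, the smallest p this design allows.

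The size of the Myh8 rise varied within TG, and its presence did not rest on TG3. Without TG3 the differences were 5.12, 3.85 and 2.57 for the 3 probes, with adjusted p of 2.84e-07, 5.86e-07 and 1.04e-05 by limma. The mean of TG1 and TG2 alone was 57.0-fold, 53.0-fold and 18.6-fold the WT mean signal. TG3 in turn was 4.41, 6.07 and 7.94 times the mean of TG1 and TG2. The 2 arrays of TG3 also differed from each other: ILMN_1223735 read 15493 on chip 1 and 30190.4 on chip 2, whereas TG1 read 5276 and 3217, and TG2 read 6510.0 and 5723, on those chips. The TG effect on Myh8 did not pass a test of a difference between chips (chip 2 minus chip 1 0.32 ± 0.41 for ILMN_1223735, SE, adjusted p = 0.92 by limma on the 6 pools).

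**Figure D1:**
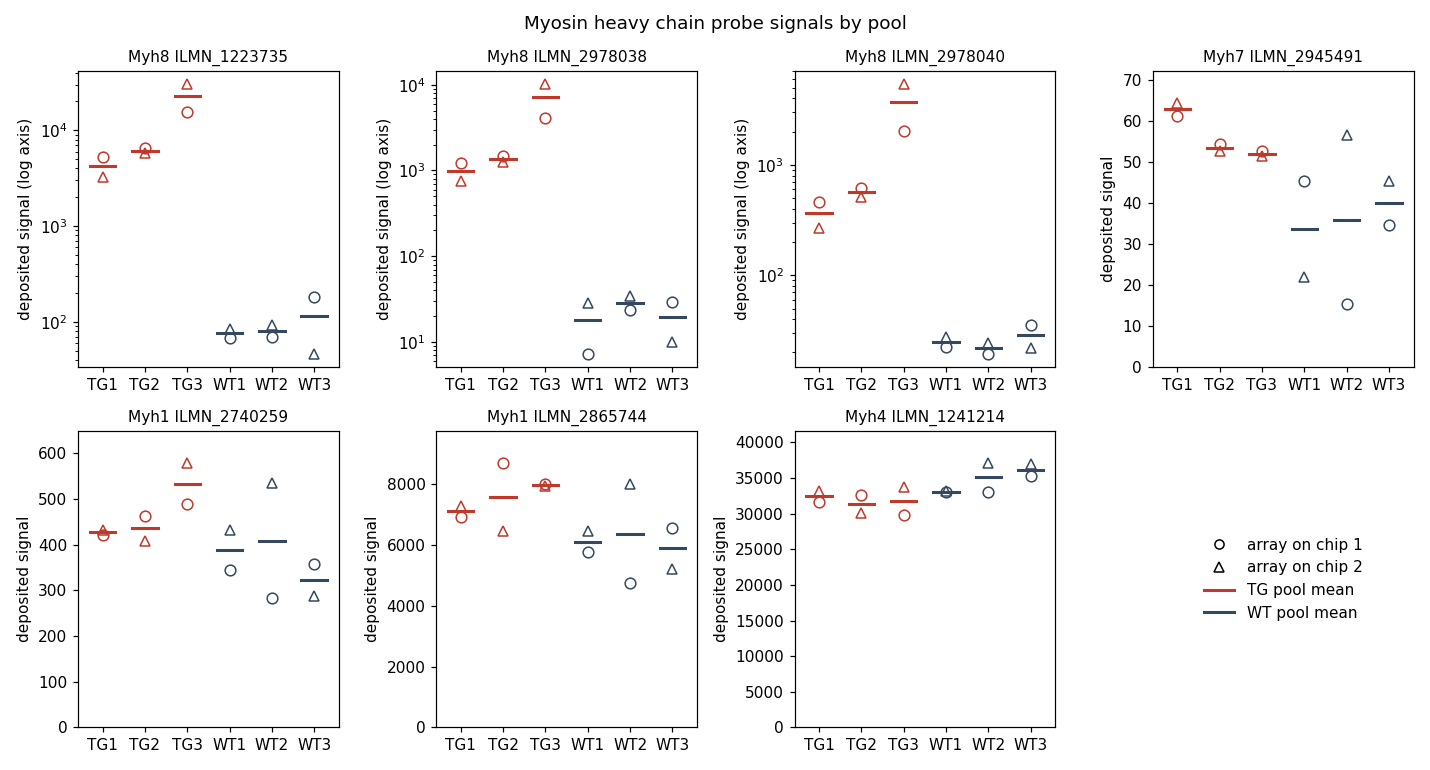
Deposited signal of the 7 tested isoform probes in each pool, TG pools left and WT pools right; circles are arrays on chip 1, triangles arrays on chip 2 and bars the mean of a pool's 2 arrays. The Myh8 panels have a log axis, the others a linear axis from 0. All Myh8 signals of TG lie above all of WT and TG3 is highest, whereas single TG and WT arrays overlap for Myh1, Myh4 and Myh7.

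Myh1, the fast IIx chain, was modestly higher in TG. The signal of ILMN_2865744 was 7101, 7571 and 7973 in TG1, TG2 and TG3, against 6097, 6363 and 5877 in WT1, WT2 and WT3. The pool means did not overlap, but single arrays did, since the chip 2 array of WT2 read 7993.6 and that of TG2 6452. The log2 difference was 0.36 ± 0.07 (SE, 95% interval 0.19 to 0.52, adjusted p = 0.0101 by limma), which is 1.28-fold. The second probe, ILMN_2740259, gave 427.1, 436.0 and 533.6 in TG1, TG2 and TG3, against 388.7, 408.9 and 323.05 in WT1, WT2 and WT3. Its difference was 0.39 ± 0.09 (SE, adjusted p = 0.0175 by limma), so both probes agree in size.

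The Myh1 call depended on the chip. On chip 1 alone ILMN_2865744 differed by 0.53 (adjusted p = 0.0257 by limma) and on chip 2 alone by 0.18 (adjusted p = 0.527). The difference between those effects was -0.36 ± 0.25 (SE) and did not pass (adjusted p = 0.85 by limma). It kept its call when any single pool was left out (0.32 to 0.39). ILMN_2740259 lost it without WT1 (0.40) and without WT3 (0.33).

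Myh4, the fast IIb chain, was slightly lower in TG. The signal of its probe ILMN_1241214 was 32416, 31308 and 31805 in TG1, TG2 and TG3, against 33092, 35084 and 36196 in WT1, WT2 and WT3. Every TG pool lay below every WT pool, by a small margin between TG1 and WT1. The log2 difference was -0.22 ± 0.06 (SE, 95% interval -0.37 to -0.08, adjusted p = 0.0364 by limma), and the mean deposited signal fell by 8.47%. The highest signal of any probe was between 40194 and 65559 per array, so Myh4 was read near the top of the scale, and whether differences were compressed there was not tested. The call was lost without WT1, WT2, WT3, TG1 or TG2 in turn (-0.23 to -0.21), on either chip alone, and with 75th percentile scaling (-0.12). The sign stayed negative in all 17 alternatives.

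Within each pool, the Myh1 signal stood higher relative to Myh4 in TG than in WT. The log2 ratio of ILMN_2865744 over the Myh4 probe was -2.11, -2.01 and -1.97 in TG1, TG2 and TG3, against -2.59, -2.56 and -2.67 in WT1, WT2 and WT3. Only the change of such a ratio is of use, since 2 probes bind with unequal strength. It differed by 0.58 ± 0.05 (SE, n = 3) with ILMN_2865744 and by 0.61 ± 0.10 with ILMN_2740259, and the genotypes did not overlap. A shift of a whole array cancels in this ratio, and over 14 alternatives it was 0.42 to 0.74 for ILMN_2865744. Of the 6 ratios over Myh4 that were computed, each had an exact two-sided permutation p of 0.1, the smallest possible, and an adjusted p of 0.1. For Myh8 the ratio rose in TG by 6.02, 4.86 and 3.67 with its 3 probes, against which the change of the adult fast isoforms was small.

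**Figure D2:**
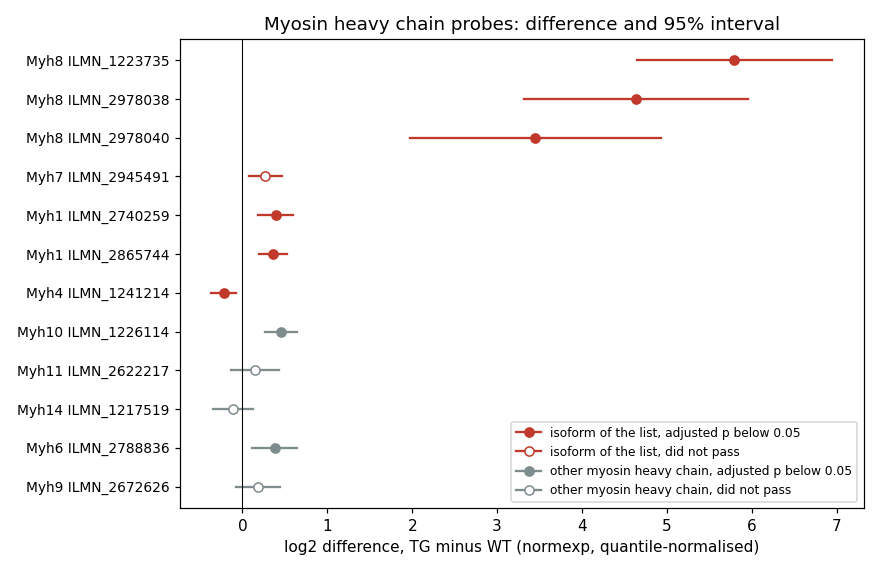
Log2 difference, TG minus WT, of each tested myosin heavy chain probe with its 95% interval from limma (3 TG and 3 WT pools); filled points have an adjusted p below 0.05, red marks the isoforms of the list and grey the other myosin heavy chains. The 3 Myh8 probes lie at 3.45 to 5.79, the Myh1 probes at 0.36 and 0.39 and Myh4 at -0.22.

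Myh7, the slow chain, was measured near the detection limit. Since probes bind with unequal strength, its low signal does not give the amount of transcript. Tnnt1, a slow fibre gene chosen after its values were seen, read 11194 to 13803 in TG and 7788 to 11295 in WT. Whether the Myh7 probes bind weakly was not tested. The Myh7 probe ILMN_2945491 read 62.9, 53.45 and 52.0 in TG1, TG2 and TG3, against 33.6, 35.95 and 39.95 in WT1, WT2 and WT3. It was detected on 6 of 6 TG and 5 of 6 WT arrays. No pool of TG fell within the WT range, yet the chip 2 array of WT2 read 56.5, above the 4 arrays of TG2 and TG3. The log2 difference of 0.27 ± 0.08 (SE, 95% interval 0.07 to 0.46) did not pass (adjusted p = 0.051 by limma). It was 0.75 without background correction (adjusted p = 0.033) and 0.32 without TG3 (adjusted p = 0.0199), and passed in 6 of 17 alternatives. The other Myh7 probes, ILMN_1213799 and ILMN_2665239, averaged 8.40 ± 7.09 and 6.52 ± 7.64 in TG and 6.35 ± 8.62 and 7.75 ± 2.71 in WT (signal, SD, n = 3), and each was detected on at most 2 of 12 arrays. They therefore say nothing about the direction of Myh7.

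**Figure D3:**
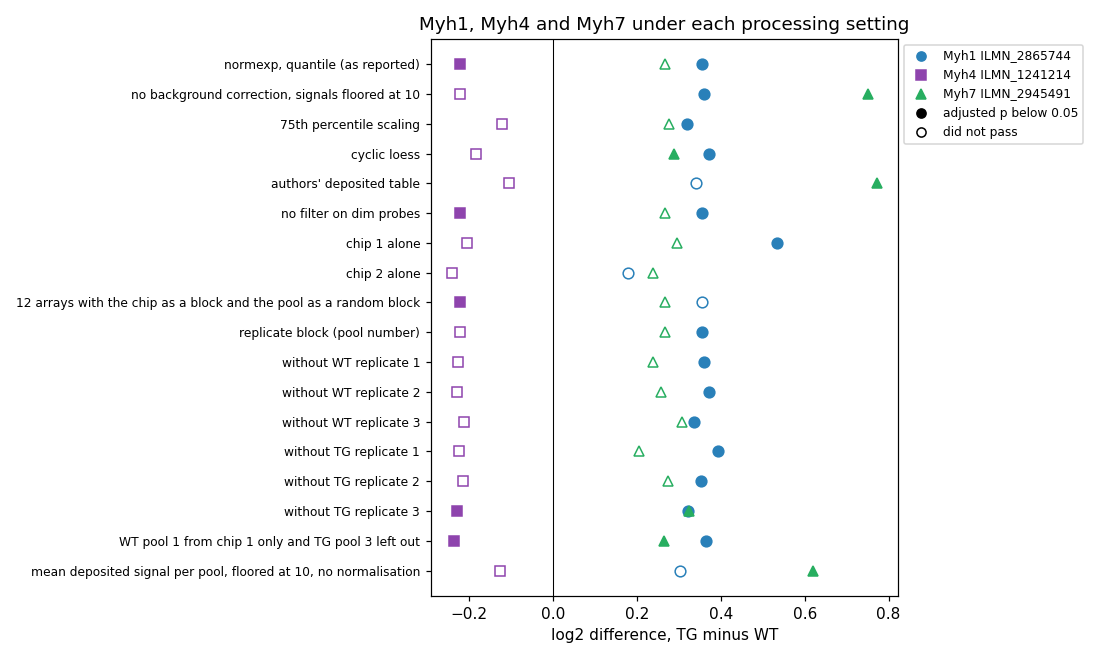
Log2 difference, TG minus WT, of the brightest Myh1, Myh4 and Myh7 probes under the reported processing and its 17 alternatives; filled symbols have an adjusted p below 0.05. Myh1 stays above 0 and Myh4 below 0 in every setting, with Myh4 called in few of them, and Myh7 is larger where no background correction was made.

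Of the other myosin heavy chain genes, 5 had a tested probe. Myh10, a non-muscle chain, rose by 0.46 ± 0.08 on the log2 scale (SE, adjusted p = 0.007 by limma), with signals of 69.95, 50.65 and 60.9 in TG1, TG2 and TG3, against 26.4, 21.95 and 28.25 in WT1, WT2 and WT3. Its difference was 1.22 without background correction, and on chip 2 alone (0.51) it did not pass (adjusted p = 0.0926). The Myh10 call rests on probe ILMN_1226114, since its probes ILMN_1230879 and ILMN_1234018 were detected on 0 arrays of either genotype. Myh6, the cardiac alpha chain, passed at 0.38 ± 0.12 (SE, adjusted p = 0.0459 by limma) with 1 of its 2 probes, but its pools overlapped and the call was lost in 13 of 17 alternatives, among them without WT2, WT3, TG1 or TG2 (0.32 to 0.35). The smooth muscle chain Myh11 (0.15) and the non-muscle chains Myh9 (0.18) and Myh14 (-0.11) did not pass. A dim Myh9 probe that was not tested, ILMN_2585154, went the other way. It read 2.8, 12.35 and 12.8 in TG1, TG2 and TG3, against 16.25, 18.1 and 23.75 in WT1, WT2 and WT3. The probe sequences were not used here, so binding of a probe to transcripts of a close relative was not checked for any of these genes.

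Some other genes of embryonic and neonatal muscle were also higher in TG. Of 20 listed, 15 were tested, 7 were higher, 0 were lower and 8 did not pass, with a median log2 difference of 0.63, which is 46.7% called. Over all 9131 genes tested 28.0% were called (12.1% higher and 15.9% lower), with a median of -0.02. The log2 difference of Igf2, which encodes the fetal growth factor, was 2.70 ± 0.14 (SE, adjusted p = 2.21e-05 by limma), with signals of 12487, 13156 and 18309 in TG1, TG2 and TG3, against 2242, 2378 and 2030 in WT1, WT2 and WT3. Myl4, the embryonic and atrial light chain that pairs with developmental heavy chains, rose by 2.01 ± 0.37 (adjusted p = 0.00702), with signals of 4332, 4708 and 13914 in TG1, TG2 and TG3, against 1679, 1765 and 1596 in WT1, WT2 and WT3. Chrng, the fetal acetylcholine receptor subunit, rose by 1.80 ± 0.56 (adjusted p = 0.0487), with signals of 128.95, 118.75 and 915.2 in TG1, TG2 and TG3, against 50.5, 12.25 and 19.7 in WT1, WT2 and WT3. Because 4 of 6 WT arrays detected Chrng, it entered the test through the TG arrays, where it is high, so its place among the 7 is no support. Mymk, a member of this list that did not pass, also entered through the TG arrays (0 of 6 WT arrays detected it). The share called and the median of the list therefore do not support a difference of the list. Its call was lost without WT1 (1.93), WT2 (1.70) or WT3 (1.76) and on chip 2 alone (1.57), and the difference was 1.02 without TG3. Actc1, the cardiac actin of developing muscle, chosen after its values were seen, was 2.34- to 2.42-fold the WT mean signal in each TG pool. The list had 4 calls on chip 2 alone and 12 (10 higher and 2 lower) without TG3.

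**Figure D4:**
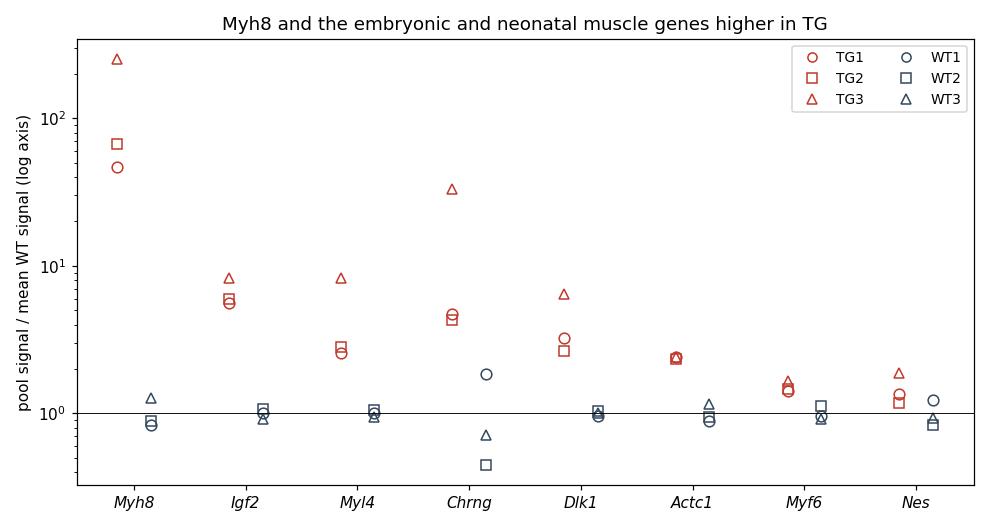
Signal of each pool divided by the mean WT signal (log axis) for Myh8 (ILMN_1223735) and the 7 embryonic and neonatal muscle genes that were higher in TG; red symbols are TG pools, dark symbols WT pools. TG3 (red triangles) is highest for all 8 genes, by a wide margin for Myh8, Myl4, Chrng and Dlk1.

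Pool TG3 was the highest TG pool for all 7 of these genes, and for 67.1% of the 1771 probes higher in TG. It was at least 2-fold the mean of TG1 and TG2 for 3 of the 7 (Myl4, Chrng and Dlk1), and for 3.95% of the 1771 probes. Of 15 listed markers of satellite cells and regenerating fibres, 13 had a probe and 8 were tested. Of these 3 rose (Chrng, Vcam1 and Nes), 0 fell and 5 did not pass, which is 37.5% called, against 28.0% of all genes. Chrng and Mymk of this list were tested only because all TG arrays detected them, so this share does not support a difference of the list. The signals of Nes overlapped between genotypes (153.35 in TG2 and 161 in WT1). Nes lost its call without WT2 (0.37), WT3 (0.43) or TG1 (0.45). The summed signal of this list was 15116 to 18884 in TG and 17722 to 19440 in WT, most of it from Des. Des itself read 14194, 16302 and 16030 in TG1, TG2 and TG3, against 18520, 18184 and 16853 in WT1, WT2 and WT3. Its log2 difference of -0.26 did not pass (adjusted p = 0.0539 by limma). Without Des the sum was 922.4, 1014.5 and 2854 in TG1, TG2 and TG3, against 919.0, 815.4 and 868.2 in WT1, WT2 and WT3, so TG3 stood apart. Cdh15, the M-cadherin of satellite cells and the next largest member, measured -0.29 ± 0.10 on the log2 scale and did not pass (adjusted p = 0.066 by limma). Its signals were 275.95, 345.4 and 385.7 in TG1, TG2 and TG3, against 453.15, 435.2 and 493.35 in WT1, WT2 and WT3. Without Des and Cdh15 the sum was 646.5, 669.1 and 2468 in TG1, TG2 and TG3, against 465.9, 380.3 and 374.9 in WT1, WT2 and WT3, above WT in every TG pool. Both left-out members read lower in every TG pool and were chosen after their values were seen. This sum therefore does not support a rise of the list. Chosen after their values were seen, as was Cdh15, are 2 further members that did not pass: Mymk, the fusion protein myomaker, read 22.1, 22.35 and 224.8 in TG1, TG2 and TG3, against -4.45, -0.65 and 0.1 in WT1, WT2 and WT3. Ncam1, an adhesion molecule of regenerating and denervated fibres, read 119.1, 127.3 and 470.15 in TG1, TG2 and TG3, against 116.95, 115.9 and 111.35 in WT1, WT2 and WT3. The satellite cell genes Pax7, Pax3 and Myf5 were detected on 0 of 12 arrays. The part of such cells in the Myh8 values of the TG pools was not tested.

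Some markers of other cells were also high in TG3. Of 4 macrophage markers 0 passed with limma, and their summed signal was 1230, 1350 and 5799 in TG1, TG2 and TG3, against 2561, 810.7 and 795.1 in WT1, WT2 and WT3. Of 5 fibroblast markers 1 rose (Tcf7l2) and 4 did not pass, and their sum was 21468, 22422 and 28102 in TG1, TG2 and TG3, against 21863, 21378 and 23248 in WT1, WT2 and WT3. The collagen gene Col3a1 of that list read 416.05, 437.75 and 1889 in TG1, TG2 and TG3, against 726.5, 288.15 and 326.35 in WT1, WT2 and WT3. It was chosen after its values were seen and did not pass (adjusted p = 0.174 by limma). The part of these cells in the TG3 values of Myh8 was not tested.

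Among the 15 genes of the fast programme, 3 rose, 0 fell and 12 did not pass (20.0% called, median log2 difference -0.01). Of all genes, 12.1% rose and 15.9% fell. Over the alternatives the fast median ran from -0.0703 (chip 2 alone) to 0.188 (the authors' own log2 values). It was 0.17 when arrays were scaled by their 75th percentile and 0.164 without normalisation. In the authors' values, this scaling and no normalisation, the median of all tested probes was -0.0777, -0.0502 and -0.0984. Summed, the fast list read 509681.3 to 551371 in TG and 437058.5 to 487715 in WT, without overlap. Whether the list as a whole differed was not tested. The largest rise was that of Gpd1, glycerol-3-phosphate dehydrogenase (1.14 ± 0.09, SE, adjusted p = 0.000149 by limma), followed by Ldha (0.31) and Pvalb (0.23). Among the 14 of the slow programme, 3 rose, 0 fell and 11 did not pass (21.4% called, median 0.08). These were Tnni1, slow troponin I (0.93 ± 0.15), Casq2, a calsequestrin (0.60 ± 0.13), and Tpm3, slow tropomyosin (0.45 ± 0.12), with adjusted p of 0.00456, 0.0148 and 0.0293 by limma. The slow light chain Myl3, chosen after its value was seen, measured -0.52 and did not pass (adjusted p = 0.0514 by limma). In the other direction, Tnnc1 measured 0.46 (adjusted p = 0.0561 by limma) and Tnnt1 0.42 (adjusted p = 0.0723 by limma). These slow troponin genes also did not pass and were chosen after their values were seen. The calls of these lists ranged from 1 to 5 and from 1 to 6 over the alternatives, with 5 in the fast list under 75th percentile scaling and 6 in the slow list without TG3. Pvalb lost its call without any 1 of the 6 pools (0.20 to 0.27), Ldha without WT1, WT2 or TG2 (0.26 to 0.31), Casq2 without WT1 or WT3 (0.58 in either) and Tpm3 when WT2, WT3, TG1 or TG2 was left out (0.36 to 0.45).

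Of 8 tested partners of the thick filament 4 were called, against 28.0% of all genes (12.1% higher and 15.9% lower). Among them the M-band proteins Myom2 (log2 difference 0.44 ± 0.07, SE) and Myom1 (0.28 ± 0.07, chosen after its value was seen) rose, and the ubiquitin ligases Trim63 (-1.77 ± 0.30), which targets myosin heavy chain, and Trim54 (-0.91 ± 0.11) fell. The other 4 tested did not pass. Of 8 light chain genes and their kinase, Myl4 and Myl6 (0.46 ± 0.11) rose and the kinase Mylk2 fell (-2.06 ± 0.13), which is 37.5% called. Of 10 genes of myosin folding, Unc45b, a chaperone of muscle myosin, fell (-0.37 ± 0.10, adjusted p = 0.0343 by limma), Stub1 rose (0.31 ± 0.06) and 8 did not pass (20.0% called). Of 23 regulators of myosin genes 4 rose, 4 fell and 15 did not pass (34.8% called). Among those that rose, Tead4 was tested only because all TG arrays detected it, so its place there is no support. The largest changes were those of the forkhead factor Foxo1 (-1.05 ± 0.18), the coactivator Ppargc1b (0.71 ± 0.14) and Tead1, a factor that binds MCAT elements of muscle genes (-0.66 ± 0.10). Unc45b lost its call without WT1, WT2, WT3 or TG2 (-0.41 to -0.31), and Myl6 (0.40 to 0.50) and Myom1 (0.23 to 0.30) without the same pools.

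Of the genes whose 6 pool values ran most like those of an isoform, Itprid2, Pigx and Rab15 were closest to Myh8 (Pearson r of 0.999, 0.998 and 0.998). Hnrnpl, Egln3 and Smpd3 were closest to Myh1 (0.998, 0.998 and 0.997), Prnp, Pigt and Pmepa1 to Myh4 (0.998, 0.996 and 0.996) and Vegfc, Ppp2r5d and Bnip2 to Myh7 (0.995, 0.991 and 0.990). With 6 pools of 2 genotypes and 9127 other genes, such values describe these pools and carry no test.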

How the data were processed

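The members and gene lists were chosen with earlier results of these data known. Each deposited signal is the intensity of a probe on a linear scale, headed non-normalized per the file headers, but their mean was 472.135 on all 12 arrays and 29.3% to 32.8% were below 0, so they had been scaled and background-subtracted. The deposited detection p-value rose with the signal (Spearman at least 0.975) and was read as 1 minus p. The authors' deposited table of log2 values was rebuilt to within 0.00109 from floored signals, the array's 75th percentile and the probe median. The sources used here do not name the scanner software.

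Signals were corrected with normexp (offset 50), quantile-normalised and averaged over the 2 arrays of a pool. Probes that reached a detection p below 0.05 on every array of TG or every array of WT were compared with limma 3.58.1 in R 4.3.3 on 3 against 3 pools (two-sided, Benjamini-Hochberg over 15708 probes). Per the labels, the pools hold different mice, and their number limits the precision. A gene was represented by its brightest tested probe, and 34885 probes had 1 symbol. Named genes were all isoform probes, tested other myosin heavy chains, up to 3 called genes per list by size, and the 3 genes most like each isoform. Other names were chosen after seeing values, as stated beside them. The 17 alternatives included other background corrections, scalings, single chips, blocks (statmod 1.5.0) and left-out pools. Motifs were searched in the 250 bases before each RefSeq start (GRCm38.p6).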

Additional observations from a re-analysis of the deposited data

How the results depend on the processing

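The direction of every tested isoform probe was the same in all 17 alternatives, and the 3 Myh8 probes kept their call in each (5.12 to 6.67, 3.85 to 6.75 and 2.57 to 5.21 on the log2 scale). Myh1 (ILMN_2865744) lost its call in the authors' deposited table (0.34), on chip 2 alone (0.18), over 12 arrays with chip blocked and pool random (0.36) and without normalisation (0.30), the last an alternative chosen after seeing the data. Myh4 lost it without background correction (-0.22), with 75th percentile scaling (-0.12) or cyclic loess (-0.18), in the authors' deposited table (-0.11), on chip 1 (-0.20) or chip 2 alone (-0.24), without normalisation (-0.13) and with any pool but TG3 left out (-0.23 to -0.21 over the 6 pools, called without TG3). Myh7 passed without background correction (0.75), with cyclic loess (0.29), in the authors' deposited table (0.77), without normalisation (0.62) with WT1 from chip 1 only and TG3 left out (0.265), and without TG3 (0.32). It did not pass without any other single pool (lowest 0.20). The 4060 calls over all probes were 1457 on chip 2 alone and 2062 to 4220 with single pools left out, with fewest without WT2 (2062), WT3 (2583) and WT1 (2588), where fewer samples entered. The 31 called genes of the 8 lists were 16 on chip 2 alone and 18 to 40 with single pools left out. Calls split into 1771 higher and 2289 lower probes, and into 1453 and 2884 with 75th percentile scaling, 2084 and 1992 with cyclic loess and 1168 and 2815 without normalisation. Of the 29 called list genes other than myosin heavy chains, 16 (chip 2 alone) to 29 (cyclic loess) kept their call and 0 changed sign. With the pool number as a replicate block, Myh4 did not pass (-0.22) and 3101 probes were called. The deviations of same-numbered pools had correlations of -0.417, 0.343 and -0.118, and those of differently numbered pools -0.442 to 0.431. With 3 pools per genotype, such values cannot decide whether the numbers pair the pools. The ratios over Myh4 were not recomputed for the blocks and the filter, which leave the pool values as they are. Where a call was lost or gained, the cause was not tested.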
